A study of Bos taurus with 9 samples.

Results

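CARMIL1, ROGDI, SYCP2 and TPRG1 are 4 of the 47 genes in a table that presents genes differing between bovine blastocysts, the embryonic stage at which a cavity has formed. They were chosen by their mean FPKM, a transcript level corrected for gene length and sequencing depth, which was the lowest of 3 groups in embryos that had been vitrified and warmed without α-ketoglutarate (AKG), a metabolite of the tricarboxylic acid cycle. In all, 9 of the 47 genes had that order, and the other 5 were NPSR1, GNAS, GATA5, ENSBTAG00000038893 and ENSBTAG00000053922. Each group had 3 libraries of female embryos: control, not vitrified; vitrified-warmed (AKG-), called AKG-free here; and vitrified-warmed (AKG+), called AKG-treated. Vitrification cools an embryo to a glass-like solid without ice. The labels used here do not state the dose or timing of AKG, the number of embryos in a library or their day of culture. They do not say whether the libraries of 1 group are separate batches of embryos either, and the spread that p-values rest on may then be technical.

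The 4 genes belong to no common pathway. CARMIL1 encodes a scaffold at the leading edge of human and mouse cells that binds capping protein and loosens it from the growing ends of actin filaments, so that filaments can lengthen. ROGDI encodes a leucine zipper protein that, in human cells, associates with the rabconnectin proteins that help to assemble the vacuolar ATPase, the pump that acidifies organelles. SYCP2 encodes a protein of the lateral elements of the synaptonemal complex, the structure that holds paired chromosomes together in meiosis. TPRG1 takes its name from regulation by the transcription factor p63, and little is known of its function.

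In the deposited annotation, of a build not stated in the labels or headers, ROGDI (ENSBTAG00000016331) lies on the minus strand of chromosome 25, from 3872510 to 3882364, with 2 transcripts. CARMIL1 (ENSBTAG00000016549) lies on the minus strand of chromosome 23, from 32267215 to 32573502, with 2 transcripts. SYCP2 (ENSBTAG00000003608) lies on the plus strand of chromosome 13, from 56624611 to 56685728, with 4 transcripts. TPRG1 (ENSBTAG00000032538) lies on the minus strand of chromosome 1, from 78014932 to 78184743, with 1 transcript. In the RefSeq annotation of ARS-UCD2.0, used only for neighbours, the coding genes on either side of TPRG1 are TP63, which encodes p63, and LPP. There CARMIL1 overlaps SLC17A1 and 2 uncharacterised noncoding genes, and TPRG1 overlaps an uncharacterised noncoding gene and a transfer RNA gene. Overlap here is of whole gene spans, and exons were not compared. Use of strand in counting is not stated either, so whether these overlapping genes share reads is not known. ROGDI and SYCP2 overlap no RefSeq gene.

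Values are mean ± SD of 3 libraries unless stated. Relative sequencing depth, read from the ratio of count to FPKM, lay between 0.793 and 1.17 of the average library; the depth itself is not known. S100A11, the most abundant listed gene in 2 of the AKG-free libraries, was at 23.4 to 25.1 FPKM in controls, 57.4 to 1866 FPKM without AKG and 28.4 to 92.4 FPKM with it. Of 13 trophectoderm markers, PAG11 was in the table, with 0 to 1.52 FPKM in controls, 24.0 to 67.9 FPKM without AKG and 1.36 to 17.1 FPKM with it. Its part in the levels of the 4 genes was not tested. None of 8 inner cell mass, 7 primitive endoderm, 7 cumulus, 5 blood or 4 sperm markers was in the table, so the labelled embryo could not be checked against them here.

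The levels of the 4 genes in AKG-free libraries chose them, so the next values are a description without a test. ROGDI had 19.6, 39.5 and 23.9 FPKM in control libraries 1, 2 and 3, then 5.49, 2.71 and 5.30 FPKM in AKG-free libraries 1, 2 and 3, and 15.6, 12.1 and 21.7 FPKM in AKG-treated libraries 1, 2 and 3. Every AKG-free library lay below every library of the other groups. The mean was 27.7 ± 10.4 FPKM in controls, 4.50 ± 1.55 FPKM in AKG-free libraries and 16.5 ± 4.89 FPKM in AKG-treated libraries, so controls were 6.15-fold and AKG-treated libraries 3.66-fold above AKG-free libraries. Its counts, 284 to 637 in AKG-free and 1228 to 3226 in the other libraries, leave little counting error. In RNA from whole embryos, fewer cells that express a gene and less RNA per cell cannot be told apart.

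CARMIL1 had 3.12, 9.01 and 3.81 FPKM in control libraries 1, 2 and 3, then 0.573, 0.992 and 0.396 FPKM in AKG-free libraries 1, 2 and 3, and 3.42, 5.23 and 5.01 FPKM in AKG-treated libraries 1, 2 and 3. Its AKG-free libraries also lay apart from all others, while its control and AKG-treated libraries overlapped. The control mean of 5.31 ± 3.22 FPKM was 8.13-fold, and the AKG-treated mean of 4.55 ± 0.987 FPKM 6.97-fold, above the AKG-free mean of 0.654 ± 0.306 FPKM. Without control library 2, the highest, the first of these folds was 5.30.

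SYCP2 had 1.71, 1.64 and 1.67 FPKM in control libraries 1, 2 and 3, then 0.128, 0.0128 and 0.409 FPKM in AKG-free libraries 1, 2 and 3, and 2.56, 5.64 and 0.488 FPKM in AKG-treated libraries 1, 2 and 3. AKG-treated library 3 stood just above AKG-free library 3, with 147 against 141 counts, and below all 3 controls. The lowest value, in AKG-free library 2, rests on 4 counts, an exact Poisson 95% interval of 0.00367 to 0.0345 FPKM that covers counting error only. Group means were 1.67 ± 0.0327 FPKM in controls, 0.183 ± 0.204 FPKM in AKG-free libraries and 2.90 ± 2.59 FPKM in AKG-treated libraries, a fold of 9.14 for controls and 15.8 for AKG-treated libraries over AKG-free libraries. Without AKG-free library 3 these folds were 23.7 and 41.1, and without AKG-treated library 2 the second was 8.33.

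TPRG1 had 0.260, 1.16 and 0.662 FPKM in control libraries 1, 2 and 3, from 32, 102 and 67 counts, and 0 counts in each AKG-free library. A count of 0 allows up to 3 counts, or 0.0231 to 0.0266 FPKM in these libraries. AKG-treated libraries 1, 2 and 3 had 0.915, 0.677 and 1.14 FPKM, from 92, 74 and 129 counts. Against the mean floor of 3 counts in each AKG-free library, the control mean of 0.695 ± 0.452 FPKM was at least 28.1-fold higher and the AKG-treated mean of 0.909 ± 0.229 FPKM at least 36.8-fold higher. Without control library 2 the first of these bounds was 18.7. Among the listed genes, 4 had no reads in any AKG-free library, and the other 3 were NPSR1, GATA5 and ENSBTAG00000053922.

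**Figure D1:**
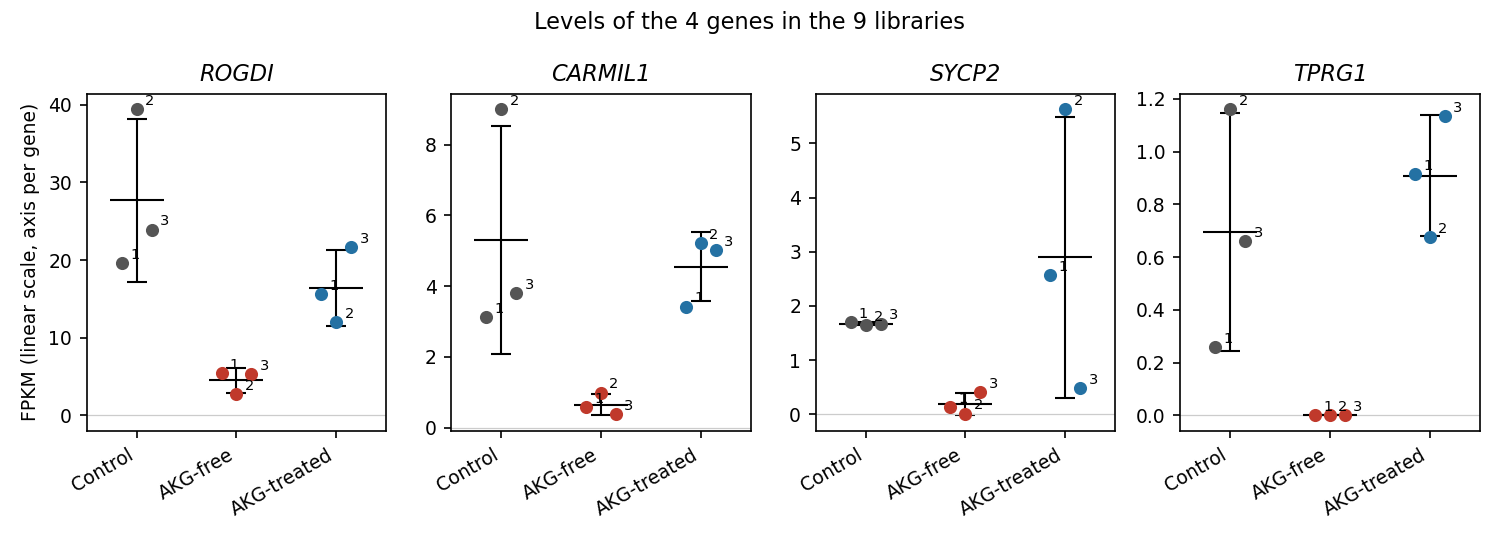
FPKM of ROGDI, CARMIL1, SYCP2 and TPRG1 (vertical axis, linear, one scale per gene) in control, AKG-free and AKG-treated libraries. Points are libraries with their replicate number, and bars are mean and SD of 3; TPRG1 is at 0 in all 3 AKG-free libraries, and SYCP2 runs from 0.488 to 5.64 FPKM in AKG-treated libraries.

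All 4 genes had AKG-free libraries wholly below the controls, as had 20.7% of the 29 genes with a mean of at least 0.5 FPKM over the 9 libraries. All 4 also had AKG-treated libraries wholly above the AKG-free libraries, as had 24.1% of the 29. The rule used these contrasts, so nothing is read from the counts. Both contrasts share the same AKG-free libraries. For SYCP2 the second rests on AKG-treated library 3 and AKG-free library 3. Their Poisson 95% intervals, 0.414 to 0.576 and 0.347 to 0.486 FPKM, overlap. TPRG1, with a mean of 0.535 FPKM over the 9 libraries, reached the minimum of 0.5 FPKM through the control and AKG-treated groups, so it had to differ from its AKG-free level of 0. In AKG-free library 1, which had the lowest S100A11 of its group at 57.4 FPKM, ROGDI was at 19.8%, CARMIL1 at 10.8% and SYCP2 at 7.66% of its control mean, and TPRG1 had no reads. The part of S100A11 in these levels was not tested.

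Per length, the order in controls was ROGDI, CARMIL1, SYCP2, TPRG1, and no neighbours in that order overlapped between libraries. ROGDI was 5.21-fold above CARMIL1 by mean FPKM, CARMIL1 3.17-fold above SYCP2, and SYCP2 2.41-fold above TPRG1. The order of the means was the same in the AKG-free and AKG-treated groups, but CARMIL1 and SYCP2 overlapped in both, and SYCP2 and TPRG1 overlapped in AKG-treated libraries. Raw counts are not comparable between these genes, because 1 FPKM of CARMIL1 corresponds to 3.10 times, and of SYCP2 to 2.84 times, as many counts as 1 FPKM of ROGDI. Among the 47 listed genes ROGDI ranked 5 to 6 from the highest FPKM in controls, 14 to 21 without AKG and 8 to 9 with it. CARMIL1 ranked 12 to 15 in controls, 22 to 32 without AKG and 13 to 16 with it.

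AKG-treated libraries were then set against controls, to ask how near the levels after vitrification with AKG lay to those without vitrification. The rule did not rank these 2 groups against each other. In every listed gene, however, the AKG-free mean was either the lowest or the highest of the 3 groups. How near AKG-treated libraries lay to controls may thus be partly fixed by which genes were listed. The mean of ROGDI with AKG was 59.5% of the control mean, CARMIL1 85.7%, TPRG1 131% and SYCP2 173%. None of the 4 genes passed the test, edgeR's quasi-likelihood test with Benjamini-Hochberg adjustment over the 29 genes, and 0.0% of the 29 were called. The libraries of both groups overlapped for 4 of the 4 genes, and did not overlap for 20.7% of the 29.

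For ROGDI the edgeR log2 difference, AKG-treated minus control, was -0.75 (adjusted p = 0.634). On the log2(FPKM + 1) scale, limma gave a difference of -0.69 with a 95% interval of -1.74 to 0.36. AKG-treated library 3, at 21.7 FPKM, was the only one to reach into the control range, above control library 1. The edgeR value kept its sign in the 9 fits that left out 1 library, between -1.0 without AKG-treated library 3 and -0.40 without control library 2. An AKG-free library does not enter this difference, so the fits without one stayed at -0.75 and could not turn the sign.

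For CARMIL1 the edgeR log2 difference was -0.22 (adjusted p = 1), and limma gave -0.09 with a 95% interval of -1.09 to 0.92 on the log2(FPKM + 1) scale. All 3 AKG-treated libraries, at 64.4% to 98.4% of the control mean, lay within the control range. The sign was not stable: without control library 2 the edgeR difference was 0.39, and limma gave 0.0692 without AKG-treated library 1. The edgeR difference was -0.49 without control library 1, -0.41 without control library 3, -0.33 without AKG-treated library 2 and -0.05 without AKG-treated library 1.

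For SYCP2 the edgeR log2 difference was 0.79 (adjusted p = 1), and limma gave 0.29 with a 95% interval of -0.89 to 1.48 on the log2(FPKM + 1) scale. On the log2(FPKM + 0.1) scale the SYCP2 interval was wider, -1.86 to 2.32. AKG-treated libraries 1, 2 and 3 were at 153%, 337% and 29.2% of the control mean, so they lay on both sides of the controls and none within their range. Without AKG-treated library 2 the edgeR difference was -0.13, and without AKG-treated library 3 it was 1.29. For TPRG1 the edgeR log2 difference was 0.39 (adjusted p = 1), and limma gave 0.20 with a 95% interval of -0.55 to 0.95 on the log2(FPKM + 1) scale. The 3 AKG-treated libraries, 0.677 to 1.14 FPKM, lay within the control range of 0.260 to 1.16 FPKM. Without control library 1 the TPRG1 difference was -0.0027, without control library 2 it was 0.97, and without AKG-treated library 3 it was 0.20. On the log2(FPKM + 1) scale the interval understates TPRG1. Its control mean there was 0.73, so even a loss of all reads would stay within 1 unit. The AKG-free libraries, all at 0, also entered the spread behind this interval without adding any variation. On the log2(FPKM + 0.1) scale the TPRG1 interval was -1.20 to 2.19.

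**Figure D2:**
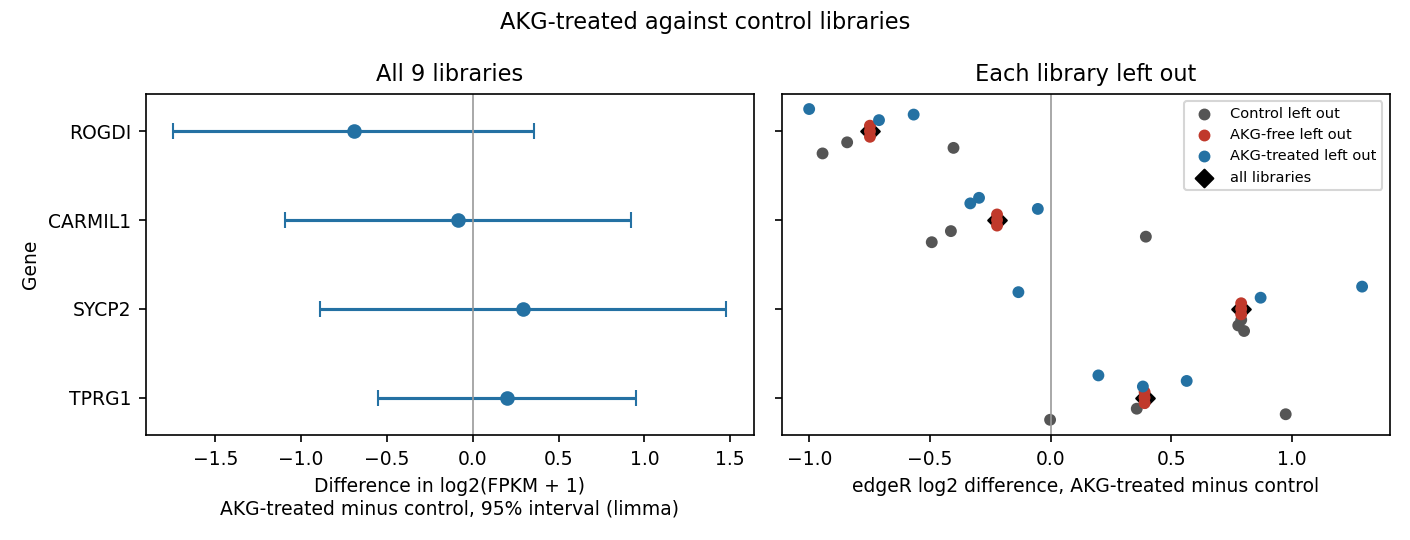
Differences between AKG-treated and control libraries for the 4 genes. Left, limma difference in log2(FPKM + 1) with its 95% interval; right, edgeR log2 difference with all libraries (diamond) and with each of the 9 libraries left out (points, coloured by the group of the library left out). All 4 intervals include 0, and the points of CARMIL1, SYCP2 and TPRG1 fall on both sides of 0.

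The median edgeR log2 difference of the 4 genes was 0.08, with 2 above and 2 below 0. Over the 29 genes the median was 0.32, with 19 above and 7 below 0. That split became 15 and 11 with TMM factors, which were computed from these same 29 genes. Of the 29, 2 genes had an unadjusted p under 0.05 in edgeR and 1 in limma, and none of the 4 was among them. DESeq2's Wald test called 1 gene, CRYAB, a small heat shock protein named after its values were seen. CRYAB had 0 counts in all 3 controls and 60 counts in total over the AKG-treated libraries, 1 of which had none. The exact permutation test of 3 against 3 libraries on log2(FPKM + 1), two-sided, cannot give a p below 0.1. It gave unadjusted exact p = 0.2 for ROGDI, 0.9 for CARMIL1, 0.7 for SYCP2 and 0.6 for TPRG1. These results do not show equal levels. On the log2(FPKM + 1) scale the intervals of ROGDI, CARMIL1 and SYCP2 reach beyond 1 log2 unit on at least 1 side. That of TPRG1 does so on the log2(FPKM + 0.1) scale.

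The 4 genes differed in how far libraries of a group spread, a property the rule did not use. In controls the coefficient of variation (SD divided by mean) of SYCP2 was 1.95%, where counting error alone would give 4.68%. That was the second lowest of the 24 genes tested that had control reads, whose median was 46.9%. In AKG-treated libraries SYCP2 varied by 89.5% and in AKG-free libraries by 111%, against medians of 44.5% and 65.6% over 26 tested genes each. The other members spread more in controls (ROGDI 37.8%, CARMIL1 60.6%, TPRG1 65.0%) than in AKG-treated libraries (ROGDI 29.7%, CARMIL1 21.7%, TPRG1 25.2%). With 3 libraries a group these spreads are themselves imprecise, and their differences were not tested.

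Control library 2 had the highest control value of ROGDI, CARMIL1 and TPRG1, at 1.81, 2.60 and 2.52 times the mean of control libraries 1 and 3. For SYCP2 the ratio was 0.971. Of the 24 tested genes with control reads, 41.7% were highest in control library 2, so 3 of 4 members is not a result about them. GNAS, the gene of a G protein alpha subunit, was at 13.5 times the mean of the other controls in library 2, and NPSR1, the receptor of neuropeptide S, at 0.221 times.

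The pattern over the 9 libraries was compared by giving each gene's FPKM as a percent of its own highest library and taking the mean absolute difference between genes. Of the 26 other genes with reads in at least 3 libraries, ROGDI was most like CARMIL1, at 9.30 percentage points, followed by TPRG1 at 19.4 and GNAS at 20.5. For CARMIL1 the next were ENSBTAG00000053922 at 13.8 and TPRG1 at 14.7. TPRG1 was most like ENSBTAG00000053922, at 12.9, then CARMIL1 and ROGDI. SYCP2 was most like GATA5, which encodes an endoderm and heart transcription factor, at 15.4 percentage points, then CARMIL1 at 22.4 and ENSBTAG00000053922 at 27.3. The medians over the 26 genes were 44.8 for ROGDI, 45.1 for CARMIL1, 37.9 for SYCP2 and 57.0 for TPRG1. The choice of genes low in AKG-free libraries fixes much of this likeness, and all libraries are shared.

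**Figure D3:**
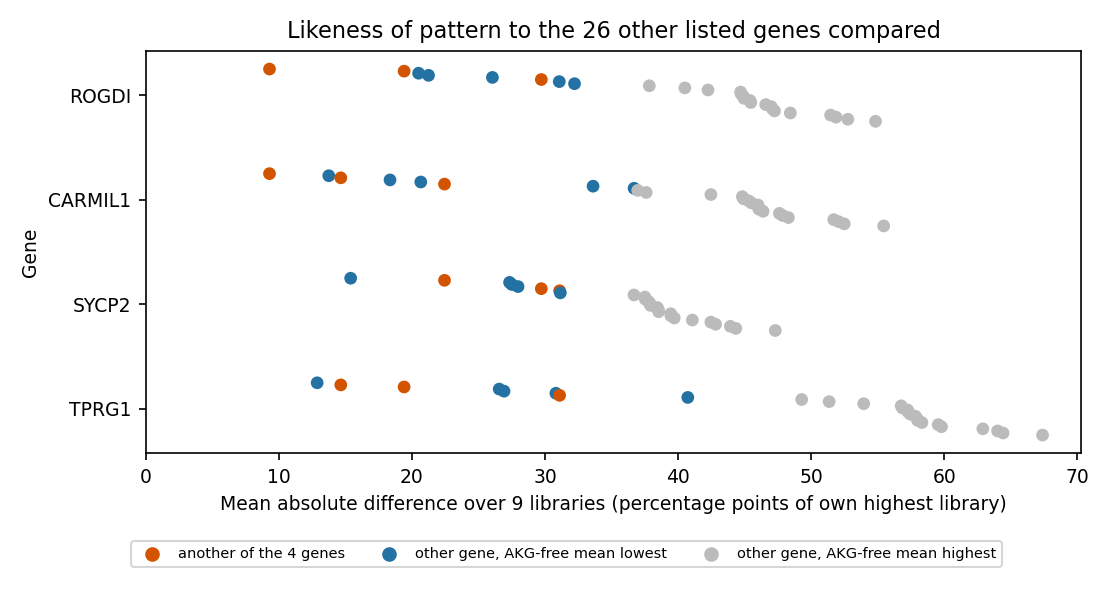
Mean absolute difference in pattern (horizontal axis, percentage points of each gene's highest library, over 9 libraries) between each of the 4 genes and the 26 other genes compared. Each point is 1 other gene, coloured by whether it is one of the 4, another gene with the lowest mean in AKG-free libraries, or a gene with the highest mean there; the smallest difference is 9.30, between ROGDI and CARMIL1.

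The 5 other genes with the lowest mean in AKG-free libraries give the setting for these levels. Their AKG-treated means were 24.6% of the control mean for NPSR1, 56.8% for GNAS, 125% for ENSBTAG00000038893, 152% for ENSBTAG00000053922 and 154% for GATA5. The edgeR log2 difference of NPSR1, AKG-treated minus control, went from -2.02 to -10.18 without AKG-treated library 1, and that of GNAS from -0.81 to 1.55 without control library 2. That of ENSBTAG00000053922 went from 0.61 to 1.896 without control library 2 and to 0.02 without control library 3. NPSR1 had 1 AKG-treated library without reads, while the 4 members, GNAS, GATA5, ENSBTAG00000038893 and ENSBTAG00000053922 had none. GNAS had 34.7 ± 48.6 FPKM in controls, 1.503 ± 1.17 FPKM in AKG-free libraries and 19.7 ± 17.8 FPKM in AKG-treated libraries. GATA5 had 0.449 ± 0.120 FPKM in controls, 0 counts in AKG-free libraries and 0.690 ± 0.485 FPKM in AKG-treated libraries. ENSBTAG00000038893 had 4.94 ± 3.04 FPKM, 0.700 ± 0.441 FPKM and 6.15 ± 1.46 FPKM in the same order of groups. ENSBTAG00000053922 had no reads in control library 3, unlike the 4 members and the rest of the 5, which had reads in every control library.

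**Figure D4:**
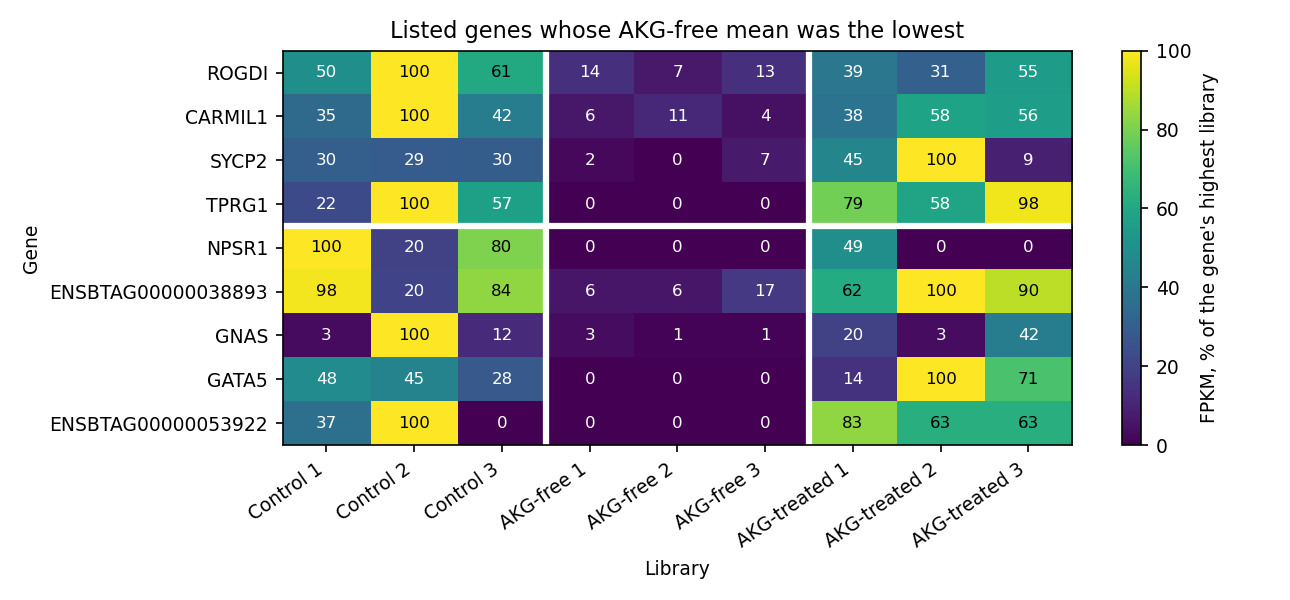
FPKM as a percent of each gene's own highest library (colour and printed value) for the 9 listed genes with the lowest mean in AKG-free libraries (rows) in the 9 libraries (columns); the 4 genes described are above the white line. AKG-free columns hold at most 16.5% in any row, and ROGDI, CARMIL1 and TPRG1 are at 100% in control library 2.

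The lists of related genes gave no wider view of each pathway. Of 20 genes of actin capping and branching, CARMIL1 alone was in the table. The same held for SYCP2 among 18 genes of the synaptonemal complex and meiotic axis, for ROGDI among 12 genes of vacuolar ATPase assembly with ROGDI, and for TPRG1 among 8 relatives and p63 targets. Genes outside the table were not analysed here.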

How the data were processed

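RNA from bovine embryos was amplified with a low-input SMART-Seq v4 kit and sequenced as read pairs, per the labels' protocols. The submitters' processing notes name cutadapt 1.9, HISAT2 2.0.4, StringTie 1.3.4d and edgeR, without their roles; build, annotation and settings are not stated there. The authors deposited FPKM for 47 genes in 9 single-library tables, which were identical to the FPKM columns of a table of the whole series. Beside them the authors deposited the raw count per gene and library. FPKM corrects for length and depth but not for composition.

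The table lists genes presented as differing between these libraries, by a rule that no label or header states, so p-values within it are no independent evidence. The members, lists and tests were chosen with earlier results of these data known. Column sums over 47 genes are not depths, so relative depth came from the ratio of count to FPKM over the 13 genes that reached 100 counts in each library, which deviated from their library's common factor by at most 0.733%. Intervals and floors of 3 counts cover counting error only, since reads were amplified and carry no molecular identifiers.

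The test was edgeR's quasi-likelihood test (version 4.0.16, R 4.3.3) on counts, 3 groups in 1 fit, with relative depth as library size, 1 common dispersion (1.02) and a threshold of 0.05 on the adjusted p. Genes below a mean of 0.5 FPKM were left out, which removed 18. limma 3.58.1 on log2(FPKM + 1) gave intervals. The edgeR and limma steps were run on simulated data, and the summary covers edgeR only. There edgeR recovered 92% of 8-fold changes at a preset dispersion of 0.3, but 11% at the dispersion of the listed genes, 1.02. With 3 libraries a group and this dispersion edgeR has little power, so a gene that misses the threshold is not shown to be unchanged. Named genes were the 4 members, the 3 genes most like each, and other genes with the lowest mean in AKG-free libraries. Alternatives were limma, a pseudocount of 0.1, DESeq2 1.42.0, TMM, other filters, the replicate number as a block, 6 libraries, group medians and leaving out each library; limma with each library left out was added after seeing the data. Python 3.11.15, numpy 2.4.6, pandas 2.3.3, scipy 1.17.1 and matplotlib 3.10.9 served for summaries and plots. Motif searches of promoters were not run and no sequence is printed.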

Additional observations from a re-analysis of the deposited data

How the results depend on the processing

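No alternative brought any of the 4 genes past the threshold between AKG-treated and control libraries. For ROGDI the difference stayed below 0 in 27 of 27 alternatives, with edgeR, limma and DESeq2 adjusted p down to 0.392. Several of these could not turn its sign, since those leaving out an AKG-free library keep the same difference. The exact test repeats the limma difference. For the other members leaving out 1 library turned signs. CARMIL1 went to 0.39 in edgeR and 0.30 in limma without control library 2, and to 0.0692 in limma without AKG-treated library 1. SYCP2 went to -0.13 in edgeR and -0.22 in limma without AKG-treated library 2, and TPRG1 to -0.0027 in edgeR without control library 1. Leaving out each library gave edgeR differences of -1.0 to -0.40 for ROGDI, -0.49 to 0.39 for CARMIL1, -0.13 to 1.29 for SYCP2 and -0.0027 to 0.97 for TPRG1; limma, added after seeing the data, reached no call for them either. The number of genes called went from 0 to 1 with DESeq2, and was 0 to 1 over the fits leaving out a library. TMM moved the median of the 29 genes by -0.27, turned no sign among the 4 and gave ROGDI -0.92, CARMIL1 -0.41, SYCP2 0.30 and TPRG1 0.20. Its factors came from these same 29 genes, which were listed as differing, so it is no independent check on composition. The filter at 5 FPKM kept ROGDI alone of the 4.

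The correlations of deviations from group means ran from -0.22 to 0.20 over the 9 pairs of same-numbered libraries. Pairs with different numbers ran from -0.60 to 0.53. With 3 libraries a group this cannot tell whether the numbers pair samples. With the replicate block, edgeR gave -0.80 for ROGDI, -0.07 for CARMIL1, 0.85 for SYCP2 and 0.59 for TPRG1, and called no gene. Leaving out a library moved the SYCP2 fold of controls over AKG-free libraries between 6.24 and 23.7 and of AKG-treated over AKG-free libraries between 8.33 and 41.1. Genes whose AKG-treated and control libraries did not overlap numbered 6, and up to 11 without 1 library, where fewer libraries overlap less by construction. Depth limits TPRG1 most, with 32 to 129 counts outside the AKG-free group.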

Other observations

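The ratio of ROGDI to CARMIL1 in FPKM was 6.28, 4.38 and 6.29 in control libraries 1, 2 and 3, 9.57, 2.73 and 13.4 in AKG-free libraries 1, 2 and 3, and 4.56, 2.31 and 4.34 in AKG-treated libraries 1, 2 and 3. In each group the lowest ratio was in library 2, although the numbers are not known to pair samples. The ratio of CARMIL1 to SYCP2 ran from 1.83 to 5.49 in controls, from 0.969 to 77.8 in AKG-free libraries and from 0.927 to 10.3 in AKG-treated libraries. SYCP2 was the higher only in AKG-free library 3 and AKG-treated library 2. There the Poisson 95% intervals of both genes overlapped. In AKG-treated library 2 they were 5.33 to 5.88 FPKM for SYCP2 and 4.97 to 5.48 FPKM for CARMIL1. Overlap of intervals does not decide whether the order differs beyond counting error, and this was not tested.

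Of the 9 listed genes with the lowest mean in AKG-free libraries, 3 lie on chromosome 13, and they are the only listed genes on it. GNAS lies 0.780 Mb and GATA5 1.82 Mb from SYCP2 in the deposited annotation. This was noticed after the values were seen and was not tested.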
